A study of Rattus norvegicus with 6 samples.

Results

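The postsynaptic scaffolds, kinases and adhesion proteins described here are 39 genes that build the receiving side of a synapse: the Homer, Shank, Dlgap and Dlg scaffolds, the Camk2 kinases, the neuroligins and other adhesion proteins, and proteins that hold AMPA receptors and signaling enzymes in place. Members were listed by symbol and function. Each is represented by 1 probe set, a group of short array probes for one transcript: among the probe sets that the platform annotation gives that symbol alone, the one with the highest mean over all 6 arrays. Of the 39 genes 37 were measured in this way, out of 14217 genes on the array. Lrrtm1 and Lrrtm2 have no probe set with a single symbol in the annotation used here and were not analysed.

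The cells were retinal ganglion cells (RGCs), the output neurons of the eye, purified from postnatal day 6 rats and grown for 12 days in medium with the growth factors BDNF and CNTF. RGCs cultured alone with no added protein (Alone) were compared with RGCs given glypican 4 (Gpc4) or thrombospondin 1 (TSP1), both proteins that astrocytes secrete, for 12 h before RNA collection, with 2 arrays in each group. Gpc4 induces active synapses and TSP1 induces silent synapses without AMPA receptors. The comparison asks whether mRNAs of the postsynaptic apparatus differ after 12 h of either protein. The paper places 12 h before the rise of the AMPA receptor subunit GluA1 at the surface, and counted synapses after longer treatment. The arrays thus do not compare established active and silent synapses. All 3 groups carry BDNF and CNTF, and the methods also list forskolin in the complete growth medium. The methods name Sprague Dawley rats of both sexes. They state that RNA of pooled wells went on each array and that the experiment was done on 2 separate RGC cultures. Replicates 1 and 2 of each group are taken here as cultures 1 and 2, a match that neither the labels nor the methods state. Tagged Gpc4 came from transfected HEK293 cells, a human embryonic kidney line, whose medium was passed over nickel beads, and no control medium carried through the same purification is among the samples analysed.

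As background, the postsynaptic density is a protein mesh under the membrane of excitatory synapses. Dlg proteins bind receptors and adhesion molecules through PDZ domains, Dlgap proteins link Dlg to Shank, and Homer links Shank to metabotropic glutamate receptors and internal calcium stores. Calcium entry activates the Camk2 kinase, which phosphorylates AMPA receptors and scaffolds when synapses are strengthened, while neuroligins and N-cadherin span the cleft to partners on the presynaptic side.

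Values are log2 expression values, on which a difference of 1 is a doubling. The median of an array lay between 5.96 and 5.99, and 31 of the 37 members lay above the median on all arrays. Baiap2 lay on both sides of it, and Dlgap2, Nlgn2, Lrrc4, Akap5 and Prkca lay below it on all arrays. No detection call was used, so a value below the median may be background signal, and a difference between such values can be smaller than that in mRNA. All 10 measured RGC markers of 12 listed lay above the array median. Their summed linear signal was 55000 to 56300 in Alone, 55000 to 55300 in Gpc4 and 55000 to 55500 in TSP1. The 6 measured photoreceptor markers all lay below the array median, as did 3 of the 4 measured bipolar markers. Of the 8 amacrine markers only 2 lay below it on all arrays, and Pax6, the highest, was 11.77 to 12.02. The amacrine sum was 6350 to 6500 in Alone, 6400 to 6430 in Gpc4 and 6140 to 6600 in TSP1. Markers of astrocytes and Müller glia (10 of 10 measured, 7 below the median on all arrays) summed to 1230 to 1370 in Alone, 1610 to 1620 in Gpc4 and 1450 to 1530 in TSP1, and endothelial and mural markers (7 of 8 measured) to 232 to 275, 344 to 361 and 224 to 229. The glial sum lay largely with Glul, at 9.74 and 10.03 in Alone, 10.29 and 10.27 in Gpc4 and 10.16 and 10.13 in TSP1. Of the 10 glial markers 7 were higher and 3 lower with Gpc4, at a median log2 fold change of 0.11. The higher endothelial sum in Gpc4 lay with Kdr, at 6.84 and 7.36 in Alone, 7.86 and 8.0 in Gpc4 and 6.77 and 6.83 in TSP1, while the other 6 lay below the median on all arrays and the median log2 fold change of the 7 with Gpc4 was 0.015. The part of these markers in the values below was not tested, and in bulk RNA fewer cells of a type and less RNA per cell cannot be told apart.

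With Gpc4, Dlgap4, Camk2g, Akap5, Camk2a and Dlg3 read 0.787 to 0.847 times the Alone level and Prkca 1.19 times, but none of the 37 members passed the threshold for a change. Groups were compared with limma, a linear model that shares its estimate of the spread across probe sets, and an adjusted p under 0.05 over all 31042 probe sets was taken as a change. For Gpc4 against Alone 0 members passed it, where 0.0838% of all probe sets did. The lowest adjusted p was 0.522 for Dlgap4, and 0.345 with the culture as a block, a fit that called 0.206% of probe sets and again 0 members. At an unadjusted p under 0.05 there were 6 members against 6.88% of all probe sets, the 6 just named. That count rests on single arrays, since leaving out Alone replicate 1 or Gpc4 replicate 2 left 1 member, and leaving out any one of the TSP1 arrays, which here add only to the estimate of the spread, left 3. The t-test named in the methods, with no adjustment, gave p of 0.05 or less for 3 members with Gpc4, beside 5.49% of the probe sets tested. The methods name it for pairwise comparisons in general. For the arrays they name only the software Affymetrix Expression Console, so the test behind the study's array calls is not stated.

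For the probe set chosen for each member, the 95% interval bounds the size of a difference in value that was not called. Each interval holds for 1 member at a time and not for all 37 jointly. Other probe sets are not covered. One of Homer1 differed from Alone by 0.375 (SE 0.0998) with TSP1, and one of Camk2d by -0.33 with Gpc4 and -0.375 with TSP1 (SE 0.156 each). For members below the array median the bound is on the signal, which can differ less than the mRNA. The 95% interval of the log2 fold change lay within 0.585 of 0, which is 1.5-fold either way, for all 37 members with Gpc4 (93% of all probe sets) and for 36 of 37 with TSP1 (94.3%). The exception was Gda under TSP1, at -0.155 with an interval of -0.598 to 0.288. With TSP1 no member passed the adjusted threshold, as for 0% of all probe sets, and with the culture as a block 0 members and 0.0129% of probe sets passed. On its chosen probe set no member had an unadjusted p under 0.05 for TSP1 without the block, against 4.4% of probe sets. With the block Shank1 did (limma unadjusted p = 0.0306), as did 2078 of all 31042 probe sets. The lowest adjusted p was 0.985 (0.727 with the block). In number, 13 members were higher and 24 lower with Gpc4, with a median log2 fold change of -0.025 beside -0.005 over all probe sets, and 18 were higher and 19 lower with TSP1, with the same 2 medians. The median size of a difference was 0.07 for Gpc4 and 0.08 for TSP1, beside 0.085 and 0.08 over all probe sets. Both comparisons use the same Alone arrays.

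**Figure D1:**
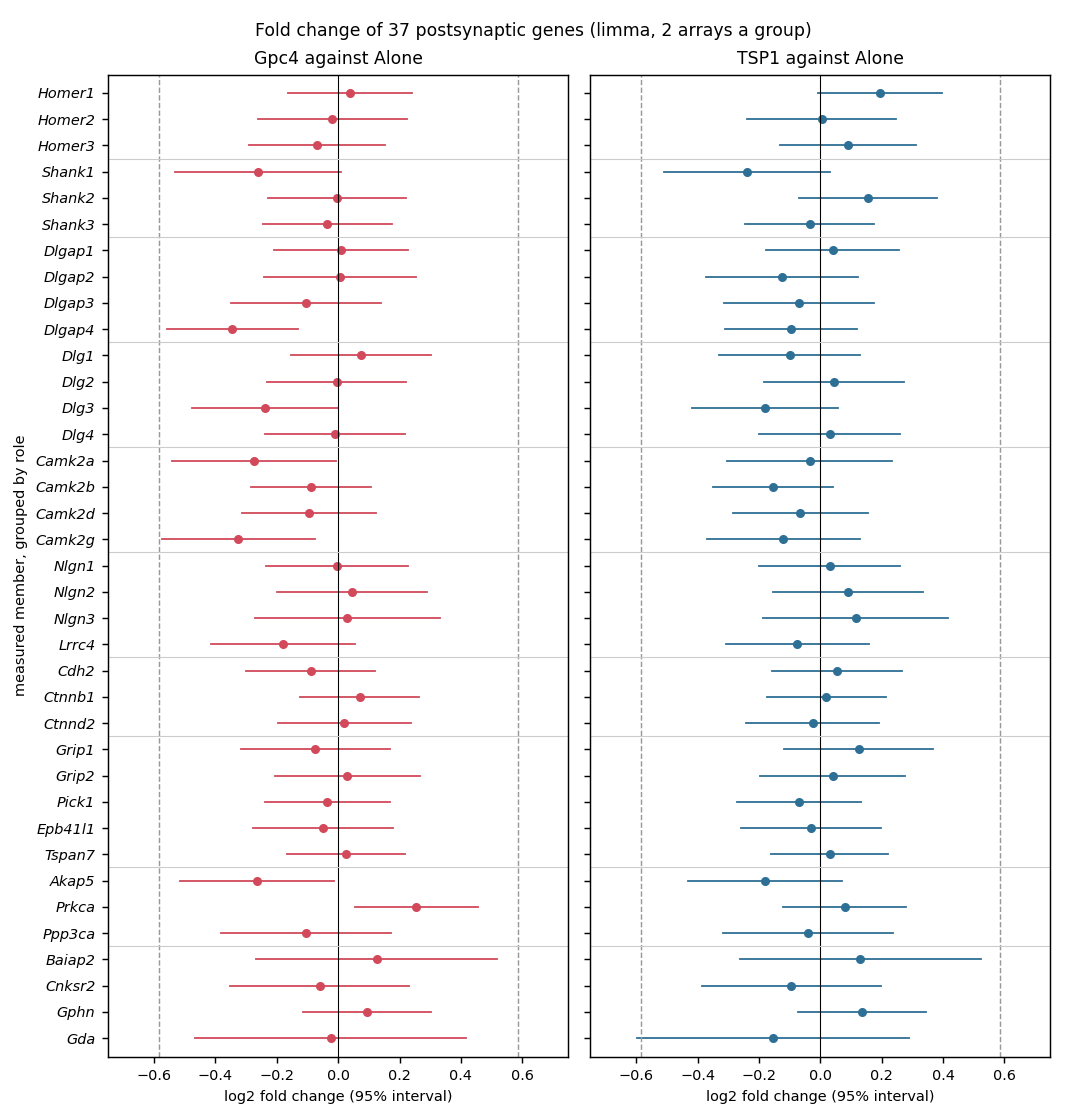
Log2 fold change of the 37 measured members in Gpc4 (left) and TSP1 (right) against Alone, by role, with points for limma estimates, bars for 95% intervals and dashed lines at 0.585 either way, which is 1.5-fold. All bars lie between the dashed lines except the lower end of Gda with TSP1 at -0.598, and those of Dlgap4, Camk2g, Akap5, Camk2a, Dlg3 and Prkca with Gpc4 do not cross 0.

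Both Gpc4 arrays lay below both Alone arrays for 11 members, where 18.9% of all probe sets did so, and above them for 5, where 16% did. With TSP1 the groups stood apart for 3 members in the lower direction (15.6% of probe sets) and for 7 in the higher direction (14.3%). The highest and lowest of the 6 values of a member differed by a median of 0.25, beside 0.27 for all genes, from 0.04 for Tspan7 to 0.58 for Gda.

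Among the scaffolds, Homer1 gave different answers on different probe sets. It encodes a scaffold that joins Shank to metabotropic receptors, and Homer staining marks postsynaptic sites in the study. On its brightest probe set it was 9.12 and 9.23 on the Alone arrays, 9.21 and 9.22 on the Gpc4 arrays, and 9.37 on each of the TSP1 arrays. The Gpc4 values thus lay within the Alone range and the TSP1 values above it. The log2 fold change was 0.04 (SE 0.087) for Gpc4 and 0.195 (SE 0.087) for TSP1, with limma adjusted p of 0.962 and 0.985.

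Homer1 has 5 probe sets, and a short and several long forms of its transcript are known. Which forms each probe set detects was not determined here. The next brightest probe set was 8.08 and 8.30 in Alone, 8.35 and 8.33 in Gpc4 and 8.56 and 8.57 in TSP1, again highest with TSP1, with a log2 fold change of 0.375 (SE 0.0998, limma unadjusted p = 0.00608, adjusted p = 0.985). The one after it was 7.17 and 7.27 in Alone, 6.99 and 6.84 in Gpc4 and 7.18 and 7.27 in TSP1. There the Gpc4 arrays were the low ones, with a log2 fold change against Alone of -0.305 (SE 0.0971, limma unadjusted p = 0.0146, adjusted p = 0.638), and TSP1 did not stand apart from Alone. The other two lay below the array median on all arrays.

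**Figure D2:**
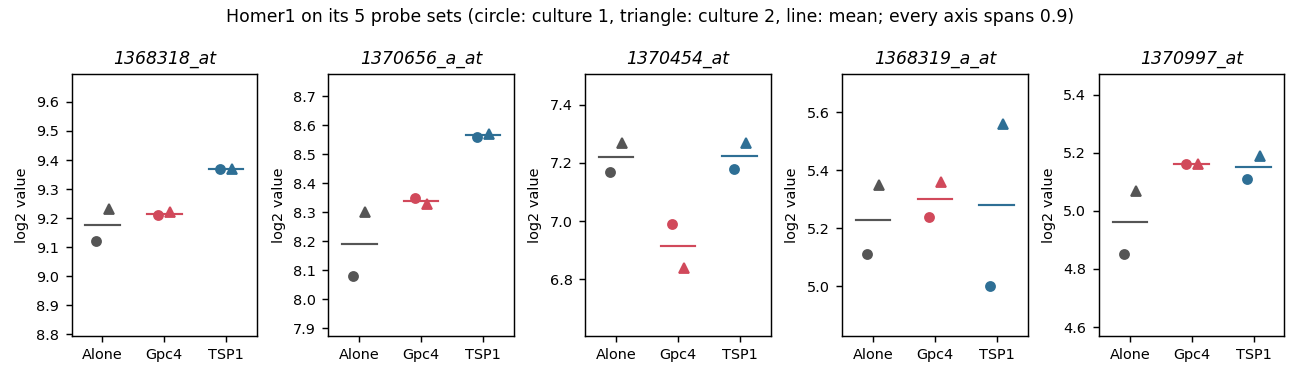
Log2 values of the 5 Homer1 probe sets on the 6 arrays, by group, from the brightest probe set on the left to the dimmest, with circles for culture 1, triangles for culture 2 and lines for group means. The leftmost probe set and its neighbor are highest on the TSP1 arrays (9.37 on both, and 8.56 and 8.57), while the middle one is lowest on the Gpc4 arrays (6.99 and 6.84).

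Homer2 and Homer3, the other long Homer scaffolds, differed from Alone by -0.02 and -0.07 on the log2 scale with Gpc4 and by 0.005 and 0.09 with TSP1. Shank proteins are the deep layer of the density, and Shank1 was the Shank gene with the largest difference. Shank1 was 10.78 and 10.69 in Alone, 10.61 and 10.34 in Gpc4 and 10.57 and 10.42 in TSP1. Each treated array lay below both Alone arrays, with a log2 fold change of -0.26 for Gpc4 (SE 0.1164, interval -0.5307 to 0.0107) and -0.24 for TSP1 (SE 0.1164), and limma adjusted p of 0.739 and 0.985. With the culture as a block the limma unadjusted p were 0.0219 and 0.0306, and the adjusted p 0.441 and 0.727. The probe sets of Shank1 disagreed: the Gpc4 difference was 0 in the mean over them. Shank2 differed from Alone by -0.005 with Gpc4 and 0.155 with TSP1, and Shank3 by -0.035 with each protein.

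Dlgap4 had the smallest limma p among the members' chosen probe sets in the treatment comparisons. It encodes a guanylate kinase-associated protein that links Dlg to Shank. Dlgap4 was 10.03 and 9.95 in Alone, 9.69 and 9.60 in Gpc4 and 9.84 and 9.95 in TSP1. Both Gpc4 arrays were below all other arrays, with a difference against Alone of -0.34 in culture 1 and -0.35 in culture 2. The mean log2 fold change was -0.345 (SE 0.0922, interval -0.5595 to -0.1305), or 1.27-fold lower, with a limma unadjusted p of 0.00621 and an adjusted p of 0.522. Dlgap1 and Dlgap3 differed from Alone by 0.01 and -0.105 with Gpc4 and by 0.04 and -0.07 with TSP1, and Dlgap2 was 3.81 to 4.11 on the 6 arrays.

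The Dlg genes encode the membrane-associated guanylate kinases of the synapse. Dlg4 encodes PSD95, the classical marker of the excitatory postsynapse, and was 9.42 and 9.52 in Alone, 9.55 and 9.37 in Gpc4 and 9.52 and 9.48 in TSP1. The 3 groups overlapped, with log2 fold changes of -0.01 (interval -0.2384 to 0.2184) for Gpc4 and 0.03 (interval -0.1984 to 0.2584) for TSP1. Dlg3, which encodes SAP102, was 8.55 and 8.42 in Alone, 8.31 and 8.18 in Gpc4 and 8.23 and 8.38 in TSP1. All treated arrays lay below both Alone arrays, with log2 fold changes of -0.24 with Gpc4 (SE 0.1022, limma unadjusted p = 0.0484, adjusted p = 0.724) and -0.18 with TSP1 (adjusted p = 0.985). The probe sets of Dlg3 disagreed: the next brightest differed from Alone by 0.03 with Gpc4 and 0.2 with TSP1. In the mean over them the differences were -0.1225 and -0.0463. Dlg1 (SAP97) differed from Alone by 0.075 with Gpc4 and -0.1 with TSP1, and Dlg2 (PSD93) by -0.005 and 0.045.

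The Camk2 family was the only role in which every gene was lower on both Gpc4 arrays than on both Alone arrays. Its 4 genes encode the alpha, beta, delta and gamma subunits of calcium/calmodulin-dependent kinase II. The median log2 fold change of the 4 was -0.185 with Gpc4 and -0.0925 with TSP1, with 2 of 4 at an unadjusted p under 0.05 for Gpc4, 0 for TSP1, and none past the adjusted threshold. Over all probe sets, 18.9% were lower on both Gpc4 arrays in this way, and an unadjusted p under 0.05 was reached by 6.88% with Gpc4 and 4.4% with TSP1. The family was singled out after its values were seen, and no test of it as a group was made.

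Camk2g was 10.22 and 10.13 in Alone, 9.95 and 9.75 in Gpc4 and 9.98 and 10.13 in TSP1. The Gpc4 values were the lowest, with a log2 fold change of -0.325 (SE 0.1067, interval -0.5732 to -0.0768), or 1.25-fold lower, a limma unadjusted p of 0.0169 and an adjusted p of 0.649. Camk2a, the subunit best known from long-term potentiation, was 6.55 and 6.39 in Alone, 6.33 and 6.06 in Gpc4 and 6.42 and 6.45 in TSP1. Its log2 fold change with Gpc4 was -0.275 (SE 0.1152, adjusted p by limma 0.724), and the TSP1 arrays lay within the Alone range. It rests in part on 1 array, being -0.14 without Gpc4 replicate 2, and was -0.1487 in the mean over the 4 probe sets of Camk2a. Camk2b, the actin-binding subunit, was 10.89 and 10.88 in Alone, 10.83 and 10.76 in Gpc4 and 10.73 on both TSP1 arrays, with log2 fold changes of -0.09 and -0.155. For Camk2b with TSP1 the methods' t-test gave an unadjusted p of 0.00104, where limma, which does not rely on the spread of the 4 arrays alone, gave 0.105, and 4.13% of the probe sets tested had a t-test p of 0.05 or less. Camk2d was 12.21 to 12.37 on the 6 arrays, with a log2 fold change of -0.095 for Gpc4 and -0.065 for TSP1.

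Over all 11 probe sets of these 4 genes, 10 were lower and 1 higher with Gpc4 against Alone, from -0.33 to 0.155, and 7 were lower and 4 higher with TSP1. The exception with Gpc4 was the second Camk2g probe set, at 7.60 and 7.27 in Alone, 7.67 and 7.51 in Gpc4 and 7.83 and 7.30 in TSP1. It was 0.155 higher with Gpc4 (SE 0.1844), so the 2 probe sets of Camk2g do not give 1 direction, and the mean over both gave -0.085. Probe sets of 1 gene share RNA and arrays and are not independent.

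**Figure D3:**
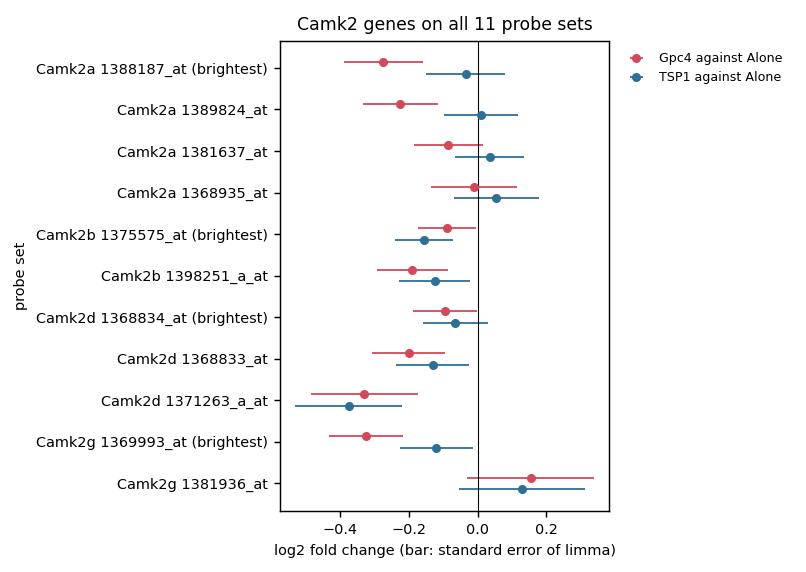
Log2 fold change against Alone of all 11 probe sets of Camk2a, Camk2b, Camk2d and Camk2g, in red for Gpc4 and blue for TSP1, with points for limma estimates and bars for their standard errors. With Gpc4 10 of 11 points lie left of 0, from -0.33 upward, and the second Camk2g probe set lies at 0.155.

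The 250 bases before the start of the 4 Camk2 genes are shown because these genes lay on 1 side of Alone together, with each GC box (GGGCGG on either strand) in capitals. Sequences are those of RefSeq, build GRCr8, on the strand of the gene. They are chr18:56648930-56649179 for Camk2a (plus strand), chr14:85147945-85148194 for Camk2b (minus strand), chr2:217698301-217698550 for Camk2d (plus strand) and chr15:3553106-3553355 for Camk2g (plus strand), each directly upstream of the annotated start.
Camk2a: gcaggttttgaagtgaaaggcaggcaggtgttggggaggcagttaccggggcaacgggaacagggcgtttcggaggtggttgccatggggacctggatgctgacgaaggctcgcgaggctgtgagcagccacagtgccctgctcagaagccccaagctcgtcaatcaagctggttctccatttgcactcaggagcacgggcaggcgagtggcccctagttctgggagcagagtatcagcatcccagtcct
Camk2b: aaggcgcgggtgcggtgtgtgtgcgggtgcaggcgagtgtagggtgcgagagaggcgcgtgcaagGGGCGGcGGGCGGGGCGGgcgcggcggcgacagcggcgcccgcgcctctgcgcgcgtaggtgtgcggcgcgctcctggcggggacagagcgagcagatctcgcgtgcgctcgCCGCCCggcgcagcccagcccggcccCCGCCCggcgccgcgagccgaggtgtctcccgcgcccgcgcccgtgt
Camk2d: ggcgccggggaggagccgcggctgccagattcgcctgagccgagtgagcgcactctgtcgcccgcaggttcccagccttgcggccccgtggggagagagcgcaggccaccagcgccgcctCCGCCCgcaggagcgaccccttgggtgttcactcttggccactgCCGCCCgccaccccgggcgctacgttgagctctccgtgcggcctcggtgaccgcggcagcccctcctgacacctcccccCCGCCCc
Camk2g: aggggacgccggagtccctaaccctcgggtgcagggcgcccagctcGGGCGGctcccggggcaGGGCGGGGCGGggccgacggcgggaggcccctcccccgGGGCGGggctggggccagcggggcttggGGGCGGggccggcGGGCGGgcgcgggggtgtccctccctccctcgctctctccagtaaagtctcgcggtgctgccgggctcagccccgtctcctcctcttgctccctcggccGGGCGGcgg
Camk2a has no GC box in this window, while Camk2b has 5, Camk2d has 3 and Camk2g has 7, counting overlapping matches. The windows of Camk2b, Camk2d and Camk2g are 80.4%, 75.2% and 80.8% G and C, and that of Camk2a is 60.4%. RefSeq windows were matched for 31 of the 37 measured members, leaving out Homer2, Shank1, Shank2, Dlgap2, Dlg3 and Cdh2. A GC box occurred in 45.2% of the 31 and in 38.9% of the windows of all 21851 protein-coding entries, and the median G and C content was 64% and 54%. GGCGCC, a GC-rich element bound by SMAD proteins, occurred in 32.3% of the 31 against 11.1%, TGACG in 6.45% against 20.4%, and TATAAA in 6.45% against 12.1%, each searched on both strands and open to overlap with the others. The part of base composition in these shares was not tested.

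Neuroligins are postsynaptic adhesion proteins that bind presynaptic neurexins. Nlgn1, the form found at excitatory synapses, was 8.61 to 8.82 on the 6 arrays and Nlgn2, the form of inhibitory synapses, 4.87 to 5.09. Nlgn3 was 7.11 and 6.78 in Alone, 7.04 and 6.91 in Gpc4 and 7.14 and 6.98 in TSP1, lower in culture 2 in each group. Its probe set is of a type that can share probe sequence with other transcripts, and the second Nlgn3 probe set, at 5.39 and 5.40, 5.43 and 5.40, and 5.47 and 5.28, was not lower in culture 2 in Alone. Lrrc4 (netrin-G ligand 2) was 5.07 and 5.15 in Alone, 4.93 on both Gpc4 arrays and 5.14 and 4.93 in TSP1. The log2 fold change with Gpc4 was -0.18 (SE 0.1004, limma adjusted p = 0.776), with all values below the array median, and its probe set also can bind related transcripts. N-cadherin (Cdh2), which joins the membranes of both sides, differed from Alone by -0.09 with Gpc4 and 0.055 with TSP1, beta-catenin (Ctnnb1), its cytoplasmic partner, by 0.07 and 0.02, and delta-catenin (Ctnnd2) by 0.02 and -0.025, none with an unadjusted p under 0.05.

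Of the AMPA receptor partners none had an unadjusted limma p under 0.05 with either protein. Grip1 and Grip2 are PDZ scaffolds of the GluA2 tail. Grip1 was 9.18 and 9.20 in Alone, 9.13 and 9.10 in Gpc4 and 9.44 and 9.19 in TSP1, so that only 1 TSP1 array was high. Grip2 was 6.15 and 6.14 in Alone, 6.29 and 6.06 in Gpc4 and 6.19 and 6.18 in TSP1. The methods' t-test gave an unadjusted p of 0.0299 for the Grip2 difference of 0.04 with TSP1, and limma gave 0.703. Pick1, which binds the same tail and takes part in receptor internalization, Epb41l1 (protein 4.1N, a link of GluA1 to actin) and Tspan7, a tetraspanin that binds Pick1, differed from Alone by -0.035, -0.05 and 0.025 with Gpc4 and by -0.07, -0.03 and 0.03 with TSP1. All 5 intervals in this group lay between -0.3183 and 0.2654 with Gpc4 and between -0.2725 and 0.3683 with TSP1.

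Among the anchored enzymes, Prkca was the member with the largest positive difference under Gpc4. It encodes protein kinase C alpha, which phosphorylates the GluA2 tail. Prkca was 5.57 and 5.60 in Alone, 5.86 and 5.82 in Gpc4 and 5.62 and 5.71 in TSP1, all below the array median. Both Gpc4 arrays were above all others, with a log2 fold change of 0.255 (SE 0.0864, interval 0.0542 to 0.4558), or 1.19-fold higher, a limma unadjusted p of 0.0193 and an adjusted p of 0.658. Akap5 encodes the scaffold that holds protein kinase A, protein kinase C and calcineurin at the receptor. Akap5 was 4.04 and 3.80 in Alone, 3.63 and 3.68 in Gpc4 and 3.68 and 3.80 in TSP1, near the bottom of the scale. Its log2 fold change with Gpc4 was -0.265 (SE 0.1079, limma adjusted p = 0.724), and -0.145 without Alone replicate 1. Ppp3ca, the catalytic subunit of calcineurin, was 11.66 on both Alone arrays, 11.66 and 11.45 in Gpc4 and 11.75 and 11.49 in TSP1, with overlapping groups.

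The remaining adaptors gave no called difference. Gphn (gephyrin), the scaffold of inhibitory synapses, was 0.095 higher with Gpc4 and 0.135 higher with TSP1, in each case with both treated arrays above both Alone arrays and limma adjusted p of 0.878 and 0.985. Baiap2 (IRSp53), an actin adaptor, was 0.125 and 0.13 higher, but its TSP1 arrays were 5.81 and 6.29. Cnksr2, a scaffold of the density, differed by -0.06 and -0.095.

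**Figure D4:**
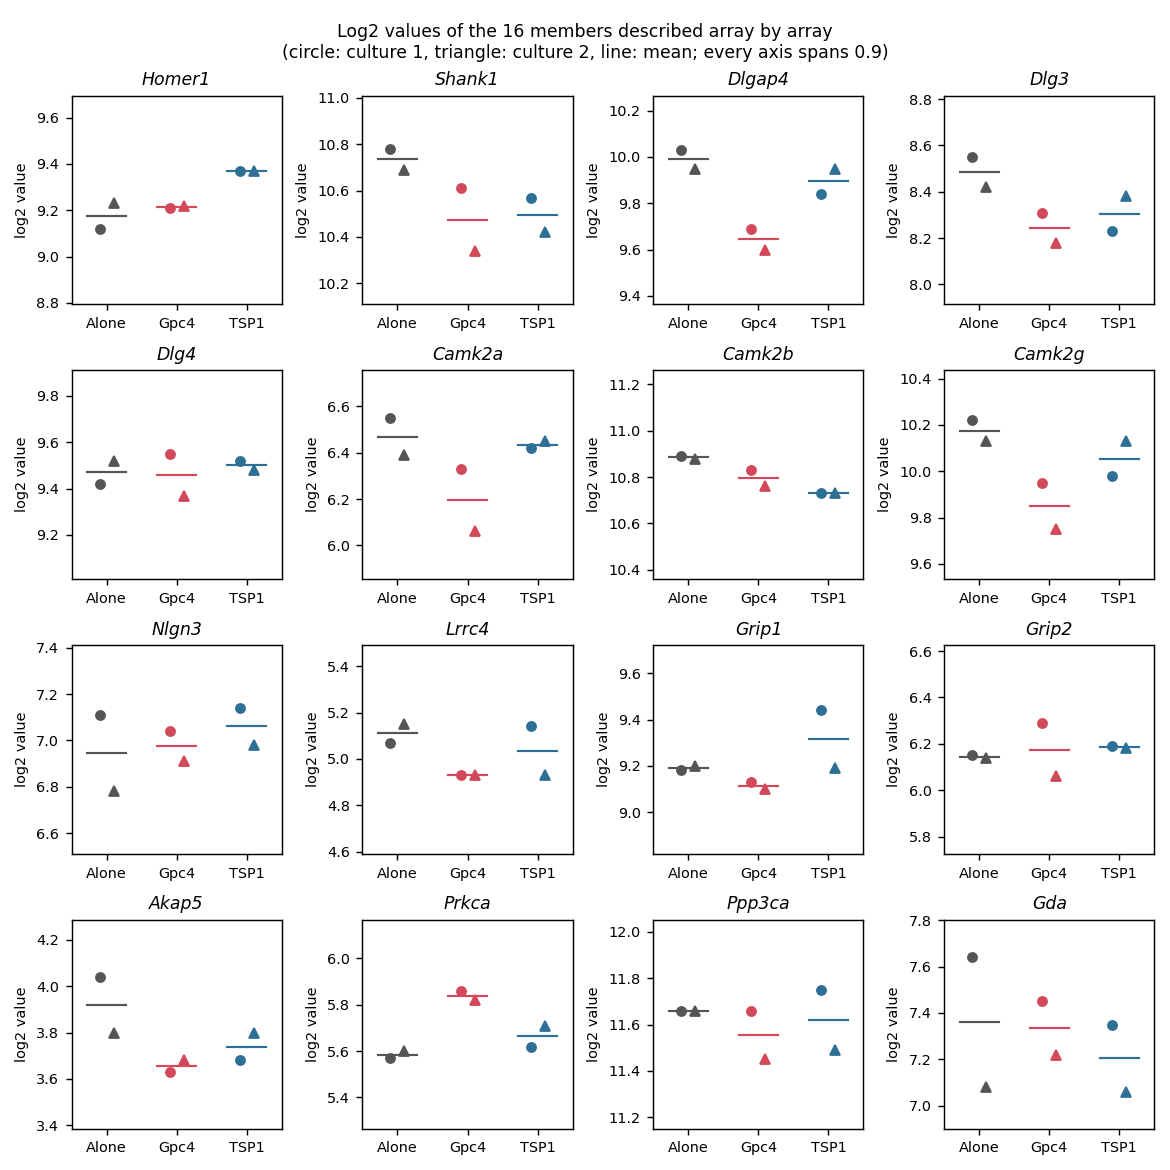
Log2 values of the 16 members described array by array, by group, with circles for culture 1, triangles for culture 2 and lines for group means; every axis spans 0.9 log2 units. Both Gpc4 points lie below the other arrays for Dlgap4 (9.69 and 9.60) and Camk2g (9.95 and 9.75) and above them for Prkca (5.86 and 5.82), and Gda separates by culture.

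The direct comparison of Gpc4 with TSP1 again called no member, where 0.0612% of probe sets passed (0.258% with the culture as a block, and again 0 members). Its differences do not use the Alone arrays, but its standard errors and p do, since those arrays add to the estimate of the spread. Among the chosen probe sets the lowest adjusted p was 0.995 (0.687 with the block). Of these, Dlgap4 alone had an unadjusted p under 0.05 without the block, against 4.51% of probe sets. Its log2 difference of Gpc4 minus TSP1 was -0.25 (SE 0.0922, limma unadjusted p = 0.0278). With the block Dlgap4 and Camk2a did (limma unadjusted p = 0.0296 and 0.0456), beside 2054 of all 31042 probe sets. All 37 intervals of the chosen probe sets lay within 1.5-fold either way, as for 94.6% of probe sets. Both Gpc4 arrays were below both TSP1 arrays for 8 members (15.5% of probe sets) and above them for 5 (14.6%). Homer1 differed by -0.155 on its brightest probe set (SE 0.087, limma unadjusted p = 0.114), where the methods' t-test gave 0.00104 and 4.62% of the probe sets tested had a t-test p of 0.05 or less. On the Homer1 probe set that was lowest on the Gpc4 arrays it differed by -0.31 (SE 0.0971, limma unadjusted p = 0.0136, adjusted p = 0.917). In all, 27 members were lower in Gpc4 than in TSP1, 9 higher and 1 equal, with a median of -0.035 beside -0.005 over all probe sets.

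Between the 2 cultures Gda and Nlgn3 were the members with an unadjusted p under 0.05, both lower in culture 2. The median size of a difference between cultures was 0.0467 over the 37 members and 0.0733 over all probe sets. Culture 2 against culture 1, with the group as a term, called no member (lowest adjusted p 0.193) beside 0.561% of probe sets, and the 2 members named compare with 11.3% of probe sets at an unadjusted p under 0.05. Gda, guanine deaminase (cypin), which binds PSD95 and shapes dendrites, was 7.64 and 7.08 in Alone, 7.45 and 7.22 in Gpc4 and 7.35 and 7.06 in TSP1. It was lower in culture 2 in all 3 groups, with a mean difference of -0.36 (SE 0.0863, limma unadjusted p = 0.00339, adjusted p = 0.193), and its second probe set, at 6.60 and 6.30, 6.52 and 6.34, and 6.52 and 5.91, was lower in culture 2 as well. Nlgn3 was the other one, at -0.21 (limma adjusted p = 0.38). Culture also moved markers of other cells: all 7 fibroblast markers were higher in culture 2, by a median of 0.9 (lowest limma adjusted p 0.00307), and all 9 microglia and macrophage markers were lower, at a median of -0.447 (lowest limma adjusted p 0.00657). Their part in the Gda and Nlgn3 values was not tested.

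**Figure D5:**
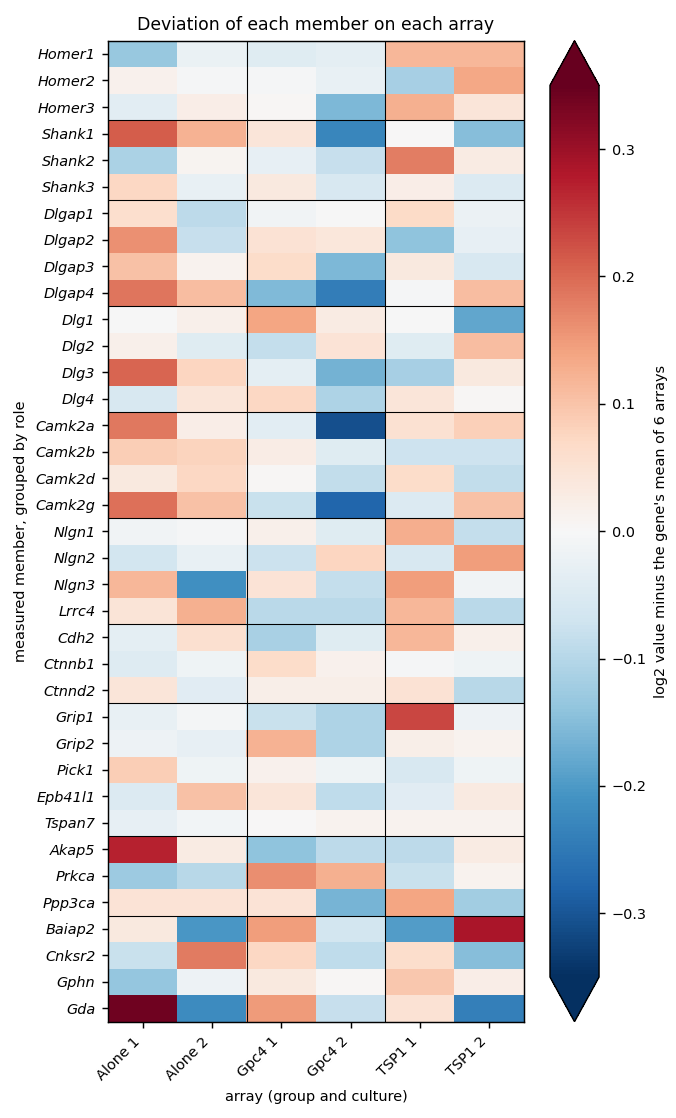
Log2 value of each of the 37 measured members on each array minus that gene's mean over the 6 arrays, by role; red is above and blue below the mean, and the colors saturate at 0.35. The Camk2 rows are red in both Alone columns, and Gda alternates between cultures 1 and 2 in all 3 groups.

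Wider lists of the same pathways also gave no called difference; the gephyrin list holds Nlgn2, described above as a member, and Slitrk3 stands in 2 of the lists. Of 37 postsynaptic density genes beyond the members measured out of 44 listed, of 29 of 32 synaptic kinases, phosphatases and anchors, of 11 of 14 cadherin and catenin partners, of 10 of 13 presynaptic partners and of 8 of 13 gephyrin partners, 0 passed the adjusted threshold of limma in any of the 3 treatment comparisons, with or without the culture as a block. Without the block the counts at an unadjusted p under 0.05 were 5, 2, 2, 1 and 1 with Gpc4, beside 6.88% of all probe sets. With TSP1 they were 0, 1, 0, 0 and 0, beside 4.4%. For Gpc4 against TSP1 they were 3, 1, 0, 0 and 1, beside 4.51%. Lin7a, a partner of the adaptor Cask, differed from Alone by -0.36 with Gpc4 (limma adjusted p = 0.5), Ncam1, a cell adhesion molecule, by -0.38 (adjusted p = 0.48), and Camkk1, a kinase that acts on other calmodulin kinases, by 0.255 (adjusted p = 0.724). The median log2 fold changes with Gpc4 were -0.03, 0.02, 0, -0.1275 and 0.02, and with TSP1 -0.015, 0.025, -0.055, -0.09 and 0.065. Among the cell type markers, Kdr, an endothelial receptor, and Lum and Dcn, matrix genes of fibroblasts, passed the threshold in the Gpc4 against TSP1 comparison, but only with the culture as a block. They were higher in Gpc4 by 1.13, 1.945 and 1.765, with limma adjusted p of 0.0171, 0.00865 and 0.0262 with the block and 0.109, 0.995 and 0.995 without it. Lum and Dcn differed from Alone by -1.635 and -1.49 with TSP1 and by 0.31 and 0.275 with Gpc4. The other genes of these lists were not called. The median log2 difference of Gpc4 minus TSP1 was -0.015 over all 7 endothelial and mural markers and 0.125 over all 7 fibroblast markers. Of the fibroblast markers 5 were higher in Gpc4 and 2 lower, with 3 at an unadjusted limma p under 0.05 (4.51% of all probe sets). Pdgfra, also on that list, was 6.32 and 7.77 in Alone, 6.35 and 7.75 in Gpc4 and 5.77 and 5.62 in TSP1, while Col1a1 differed by 0.055 between Gpc4 and TSP1. Of the 8 amacrine markers 5 were lower in Gpc4 than in TSP1 and 3 higher, at a median of -0.1425. An unadjusted limma p under 0.05 was reached by 3 of them, all lower, beside 4.51% of all probe sets.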

How the data were processed

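The authors used Affymetrix Expression Console, whose version the sources used here do not give, on scans of rat genome arrays of that maker. The deposited values are log2 RMA values, background-corrected, normalized between arrays, summarized per probe set and rounded to 2 decimals. All 6 arrays, grouped by their labels, were fitted in R 4.3.3 by lmFit and eBayes of limma 3.58.1 (two-sided, 1 mean per group, 3 residual degrees of freedom) with Benjamini-Hochberg adjustment over 31042 probe sets and no filter. No further normalization was applied. In the platform annotation 20826 probe sets have 1 symbol, 436 several and 9780 none, and all 37 measured members match a RefSeq symbol by gene identifier. The methods name 2 cultures, and around the group means arrays of 1 number deviated together (r of 0.29, 0.349 and 0.374 for the 3 pairs of groups, across probe sets). The replicate number was therefore taken to pair the arrays and was tried as a block. The members and gene lists were chosen with earlier results of these data known. Values on all arrays are given for members with 1 of the 5 smallest p in a treatment contrast, 1 of the 4 smallest for culture, or a methods' t-test p of 0.05 or less, plus Homer1 and Dlg4. The fit was also run on simulated data with known changes, and the share of these that it called is not reported here. Promoter motifs were chosen after the results were seen. Protein sequences were not used here. Figures were drawn with matplotlib 3.10.9. The precision is limited by the number of arrays, 2 in each group.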

Additional observations from a re-analysis of the deposited data

How the results depend on the processing

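No member passed the adjusted threshold in any treatment comparison under the replicate block, quantile normalization, centring on the median, a filter that keeps mean log2 values of 6 or more, the compared groups alone, a trended variance, an adjusted p under 0.10, averaging the probe sets of each gene, or with any 1 array left out (counts of 0 to 0), nor between the cultures under the alternatives run there. With the replicate block the lowest adjusted p of a member was 0.345, 0.727 and 0.687 for Gpc4, TSP1 and their direct comparison, and the block changed no call. At an unadjusted limma p under 0.05 the block counted 7, 1 and 2 members, where the fit without it counted 6, 0 and 1. Over all 31042 probe sets the block counted 2929, 2078 and 2054. A trended variance counted 5 members for Gpc4 and 3 for TSP1. The methods' t-test at an unadjusted p of 0.05 or less counted 3 members for Gpc4 (Dlgap4, Prkca and Lrrc4), 2 for TSP1 (Camk2b and Grip2) and 1 for the direct comparison (Homer1), beside 5.49%, 4.13% and 4.62% of the probe sets tested, and 0 after Benjamini-Hochberg adjustment. The count of 6 members at an unadjusted limma p under 0.05 for Gpc4 ranged from 1 to 6 with 1 array left out, and was 3 with the compared groups alone and 3 with the mean over probe sets; those for TSP1 and the direct comparison ranged from 0 to 3 each (3 for TSP1 without Alone replicate 2, and 3 and 0 for the direct comparison without Gpc4 replicate 1 and 2). Directions turned only for small values among the members and comparisons followed: Homer1 with Gpc4 was -0.015 without Alone replicate 1 and up to 0.095 otherwise. Dlg4 with Gpc4 was 0.0067 after quantile normalization and ranged from -0.1 to 0.08 with 1 array left out (0.04 without Alone replicate 2, 0.08 without Gpc4 replicate 2). With TSP1 it ranged from -0.02 (without Alone replicate 1) to 0.08, and Gpc4 against TSP1 from -0.13 to 0.05 (without Gpc4 replicate 2). Grip2 with TSP1 was -0.015 in the mean over probe sets. The cause was not tested. Over all 37 members the sign turned under at least 1 alternative for 19 with Gpc4 (none above 0.105 in size), 21 with TSP1 (none above 0.155) and 18 in the direct comparison (none above 0.13). Of the 26 members with several probe sets, all probe sets had 1 sign in 12, 11 and 11 for the 3 comparisons. Values below the array median, as for Akap5 and Prkca, are the least certain.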
